A study of Homo sapiens with 6 samples.

Results

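The small nucleolar RNA (snoRNA) host genes *SNHG1*, *SNHG5*, *SNHG7*, *SNHG8*, *SNHG12*, *SNHG15*, *SNHG16*, *GAS5*, *ZFAS1* and *DANCR* were compared between HGC27-FN1 3′-UTR cells and HGC27-control cells. They were selected by symbol, and 10 of the 39739 gene rows in the expression tables matched. HGC27 is an established gastric cancer cell line. The HGC27-FN1 3′-UTR cells carried a lentiviral insert that stably overexpressed the 3′-UTR of *FN1*, the fibronectin gene, and had been selected with puromycin, whereas the HGC27-control cells were the negative control of the same line. Both groups were grown in RPMI-1640 with fetal bovine serum, and each was sequenced in 3 libraries. No source says that the 3 libraries came from separate cultures, so the p-values measure the spread between these libraries, which may be technical.

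SnoRNAs guide the chemical modification of ribosomal RNA, and most human snoRNAs are cut out of the introns of longer transcripts. In the genes described here the introns give rise to the snoRNAs, while the spliced exons form a long noncoding RNA. Many of these host genes begin transcription at a run of C and T bases, the 5′ terminal oligopyrimidine (5′ TOP) start that is known from ribosomal protein genes. Their spliced RNAs, that of *GAS5* in particular, are known to be degraded by nonsense-mediated mRNA decay (NMD) when they are translated. *GAS5* was named for its rise in growth-arrested cells, and *DANCR* for its part in blocking the differentiation of progenitor cells.

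The first 30 bases of the transcripts are shown for the members whose level changed and for those with the longest pyrimidine runs, since this start is the sequence feature by which the family is known. Capitals mark the unbroken run of C and T from a C at the first base, and a start in lower case has none. *GAS5* begins here at chr1:173867960-173867989 on the reverse strand, and *ZFAS1* at chr20:49278642-49278671 on the forward strand, both on GRCh38.
GAS5, most used GENCODE 29 start: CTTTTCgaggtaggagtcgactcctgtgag
ZFAS1, RefSeq start: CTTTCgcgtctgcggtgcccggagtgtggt
SNHG7, both annotations: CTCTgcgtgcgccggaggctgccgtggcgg
SNHG15, outermost GENCODE 29 start: Cattaggggctcagcgcgtccctccaggcc
DANCR, RefSeq start: gcccttgcccagagtcttcccgggattggc
SNHG5, both annotations: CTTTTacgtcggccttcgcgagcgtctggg
SNHG12, both annotations: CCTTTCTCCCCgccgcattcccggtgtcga
SNHG16, most used GENCODE 29 start: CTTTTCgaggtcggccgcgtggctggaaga

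A run of at least 5 pyrimidines from a C began 20 of the 136 GENCODE 29 transcripts of the 10 members (14.7%), compared with 2.41% of 206659 annotated transcripts. These transcripts came from 7 members, and those of *SNHG7*, *SNHG15* and *DANCR* had no such run. At the RefSeq starts on GRCh38.p14, 3 of 9 members had it (*SNHG15* was not in the table used), compared with 4.07% of 35116 genes. The *GAS5* start shown was used by 6 of its 29 annotated transcripts, and its RefSeq start, like that of *SNHG16*, had no run. For *ZFAS1* the most used GENCODE 29 start, that of 4 of its 10 transcripts, had a run of 1 base only. *SNHG15* has 10 GENCODE transcripts with a start each, of which the outermost is shown, and the start shown for *SNHG12* is 1 of 3 used by 2 transcripts each. Members with such a run at the start shown were found both among those with lower levels in HGC27-FN1 3′-UTR cells (*GAS5*, *ZFAS1*) and among those without a called change (*SNHG5*, *SNHG12*, *SNHG16*). For *GAS5*, *ZFAS1* and *SNHG16* the start shown is from the annotation that has the run, so this comparison rests on chosen starts. No match at an annotated start says nothing about starts used in these cells.

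Expression was given as RPKM, in which the reads of a gene are divided by the length of its merged exons in kilobases and by the library's assigned reads in units of 1000000. The libraries held 16357085 to 29202046 assigned reads in HGC27-FN1 3′-UTR cells and 22332816 to 37037532 in HGC27-control cells, and whole reads could be recovered from 100% of the values. The test was limma on log2(RPKM + 0.1), two-sided, over 23299 genes, with Benjamini-Hochberg adjustment, and a gene was called at an adjusted p under 0.05. *FN1* itself rose from 0.516 ± 0.037 to 0.780 ± 0.037 RPKM (SD, n = 3), a log2 fold change of 0.52 (limma adjusted p = 0.0292), counted over all its exons and not over the 3′ end alone. Without any 1 of the 6 libraries its log2 fold change was 0.46 to 0.55 and the call was lost, with an adjusted p of 0.0614 to 0.0982. Epithelial markers, which should be present in a gastric carcinoma line, were low in HGC27-control cells (2.59 to 2.99 RPKM summed over 5 genes) and higher in HGC27-FN1 3′-UTR cells (18.2 to 27.0), with 5 of 5 called. The mesenchymal marker *VIM* was at 303 and 304 RPKM. Of 5 markers of other cells, *PECAM1* (endothelial) had no read and *PTPRC* (leukocyte) was not tested, *COL1A1* and *COL3A1* (fibroblast) were called higher and *DCN* was not, and the summed level was 109 to 124 RPKM in HGC27-control cells and 156 to 159 in HGC27-FN1 3′-UTR cells. The part of these marker differences in the results that follow was not tested.

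Of the 10 host genes, 4 fell in HGC27-FN1 3′-UTR cells (*GAS5*, *ZFAS1*, *SNHG7* and *SNHG15*), 1 rose (*DANCR*) and 5 were not called. Thus 5 of 10 were called, against 13.0% of all genes tested, of which 5.62% were higher and 7.36% lower. The same 5 members had groups of libraries that did not overlap, compared with 36.0% of all genes (14.3% with higher and 21.7% with lower overexpressing libraries). Over all genes 1310 were higher and 1715 lower, so that 43.3% of the calls were higher, and scaling the libraries by median ratios turned this share to 56.0%. The members' counts were 4 lower and 1 higher under that scaling too. The median log2 fold change was -0.0015 over the 10 members and -0.035 over all genes. None of the 10 met the stricter criteria of the study, an absolute log2 fold change above 1 with an unadjusted p under 0.05, which 2.47% of genes met. At an unadjusted limma p under 0.05 alone, 4 members were lower and 1 was higher, against 17.6% and 12.0% of all genes. With limma voom on the recovered reads the counts were also 4 and 1, against 13.2% lower and 8.77% higher over all genes.

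**Figure D1:**
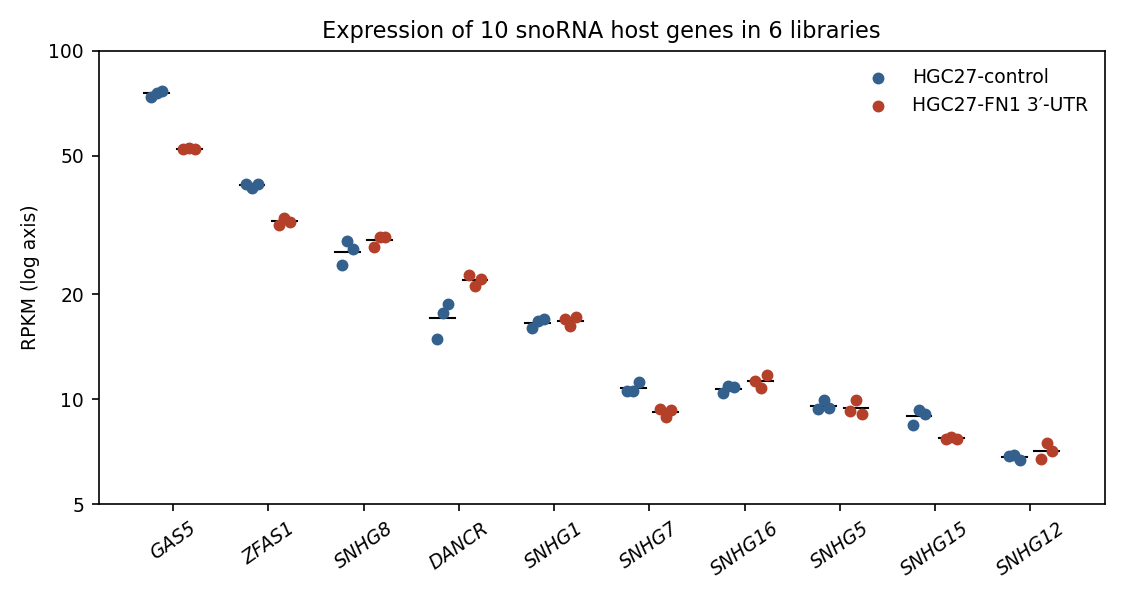
RPKM (vertical log axis) of the 10 host genes in each of the 6 libraries, ordered by the mean in HGC27-control cells; points are libraries and black lines are group means. *GAS5* lay at 52.2 to 52.6 in HGC27-FN1 3′-UTR cells and at 73.8 to 76.8 in HGC27-control cells, while the libraries of *SNHG1*, *SNHG5*, *SNHG8*, *SNHG12* and *SNHG16* overlapped between groups.

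*GAS5* (chr1:173863900-173868882, reverse strand, GRCh38) had the highest level of the 10 in both groups and the largest fall. It was measured at 52.3, 52.6 and 52.2 RPKM in the overexpressing libraries and at 73.8, 75.8 and 76.8 RPKM in the HGC27-control libraries. The 3 libraries of overexpressing cells lay within 1 RPKM of each other and far below every control library. The log2 fold change was -0.53 (SE 0.026, 95% interval -0.59 to -0.46, limma adjusted p = 4.77e-04), a level of 0.694 times the control. This was the gene with the 26th smallest p among all genes tested, and 69.3% of the 3025 called genes changed by less. The value behind it was 3104 to 5536 reads in each overexpressing library and 5981 to 10326 in each control library. It remained called when each library was left out in turn, with log2 fold changes from -0.54 to -0.51. In bulk RNA, fewer cells with the transcript and less of it per cell cannot be told apart.

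*GAS5* is a composite of many isoforms in the annotation. Its row summed 3631 exonic bases of a span of 4983, and 19 of its 29 GENCODE 29 transcripts were of the retained-intron type, so the RPKM does not separate spliced from unspliced RNA. The same holds for *SNHG1*, whose exons covered 95.6% of its span and which had 13 retained-intron transcripts of 25.

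*ZFAS1* (chr20:49278178-49295738, forward strand), named for its place antisense to the start of the zinc finger gene *ZNFX1*, showed the second largest fall. Its levels were 31.6, 33.2 and 32.4 RPKM in HGC27-FN1 3′-UTR cells and 41.5, 40.4 and 41.5 RPKM in HGC27-control cells. The groups were separated by more than their own ranges. The log2 fold change was -0.34 (SE 0.030, 95% interval -0.42 to -0.27, limma adjusted p = 0.00217), or 0.788 times the control level. Each of the 6 fits without 1 library kept the call, with log2 fold changes from -0.36 to -0.33. The RPKM of *ZFAS1* depends on how reads of other rows inside its exons were counted, as given below.

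*SNHG7* (chr9:136721366-136728184, reverse strand) and *SNHG15* (chr7:44983023-44986961, reverse strand), both long noncoding RNAs reported in several tumour types, fell less. *SNHG7* was at 9.36, 8.91 and 9.32 RPKM in HGC27-FN1 3′-UTR cells and at 10.5, 10.6 and 11.2 RPKM in HGC27-control cells. Its log2 fold change was -0.22 (SE 0.041, 95% interval -0.32 to -0.13, limma adjusted p = 0.0195). The groups did not overlap, but the gap was small beside that of *GAS5*. *SNHG15* was at 7.71, 7.79 and 7.72 RPKM in HGC27-FN1 3′-UTR cells and at 8.46, 9.29 and 9.09 RPKM in HGC27-control cells. Its log2 fold change was -0.21 (SE 0.045, 95% interval -0.31 to -0.098, limma adjusted p = 0.0324). Here the overexpressing libraries were tightly grouped and the control libraries spread more widely, with control replicate 1 the lowest of them.

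Each of these genes was called in only 1 of the 6 fits without 1 library. For *SNHG7* the limma adjusted p was 0.0414 without control replicate 1, and it was 0.0652 and 0.0502 without control replicates 2 and 3 and 0.0571, 0.0653 and 0.0523 without overexpression replicates 1, 2 and 3. For *SNHG15* it was 0.0254 without control replicate 1, and 0.112 and 0.0883 without control replicates 2 and 3 and 0.0954, 0.0862 and 0.0876 without overexpression replicates 1, 2 and 3. In these fits the direction stayed lower, with log2 fold changes from -0.24 to -0.20 for *SNHG7* and from -0.24 to -0.18 for *SNHG15*. *SNHG7* overlaps *FAM69B* on the opposite strand, with 40.5% of the exonic bases of *FAM69B* inside *SNHG7* exons. The strand setting used for counting is not given in the sources used here, so reads of these 2 genes may not be separable. *FAM69B* had a log2 fold change of -0.14 (95% interval -0.31 to 0.032) and was not called.

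*DANCR* (chr4:52712404-52720351, forward strand) was the host gene that rose. It was measured at 22.8, 21.2 and 22.2 RPKM in HGC27-FN1 3′-UTR cells and at 14.9, 17.7 and 18.7 RPKM in HGC27-control cells. Every overexpressing library was above every control library, with control replicate 1 well below the others of its group. The log2 fold change was 0.37 (SE 0.085, 95% interval 0.17 to 0.58, limma adjusted p = 0.0385), or 1.29 times the control level. The standard error was larger than that of *GAS5*, and the control libraries ranged from 14.9 to 18.7 RPKM. Without control replicate 1 the log2 fold change was 0.28 (limma adjusted p = 0.0342), and without control replicate 3 it was 0.44 (adjusted p = 0.0370). The call was lost without control replicate 2 (0.0922) and without overexpression replicates 1 (0.114), 2 (0.0787) and 3 (0.0972).

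With 3 libraries against 3, an exact permutation test of a single gene cannot give a two-sided p below 0.1. All 5 called members reached that smallest p, and the other 5 gave 0.2 to 0.6. The smallest p is reached when the groups do not overlap, as for 36.0% of all genes. It therefore repeats the count of groups apart and adds nothing to it.

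The remaining 5 members were not called, and their intervals bound the difference. For *SNHG8* (chr4:118278709-118279823) the RPKM was 27.4, 29.2 and 29.1 against 24.3, 28.4 and 26.9 in the controls. Its log2 fold change was 0.11 (95% interval -0.042 to 0.26, limma adjusted p = 0.305). The interval was the widest of the 5, since control replicate 1 was low, as it was for *DANCR*. *SNHG16* (chr17:76557766-76565348) was at 11.3, 10.8 and 11.7 RPKM against 10.4, 10.9 and 10.9, with a 95% interval of the log2 fold change of -0.036 to 0.17. *SNHG12* (chr1:28578538-28582983) was at 6.73, 7.48 and 7.13 RPKM against 6.86, 6.91 and 6.70, with an interval of -0.058 to 0.18. Neither had groups that were apart. *SNHG1* (chr11:62851988-62855914) was at 17.0, 16.2 and 17.2 RPKM against 16.0, 16.8 and 16.9, with an interval of -0.072 to 0.11. *SNHG5* (chr6:85660950-85678736) was at 9.26, 9.97 and 9.08 RPKM against 9.41, 9.93 and 9.44, with an interval of -0.14 to 0.091. For *SNHG1* and *SNHG5* the estimates, 0.021 and -0.025, were smaller than their standard errors, and that of *SNHG5* turned to 0.0099 under median-ratio scaling. A fall of the size seen for *ZFAS1* lay outside the interval of each of these 5 genes.

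**Figure D2:**
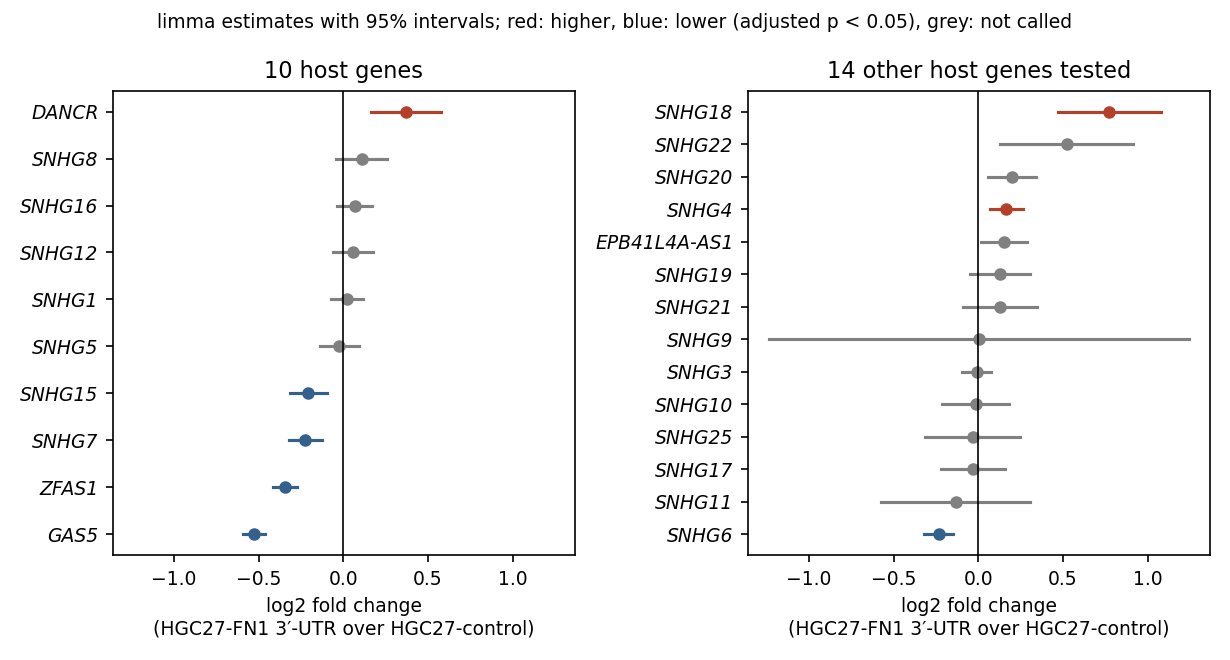
Log2 fold change (horizontal axis, HGC27-FN1 3′-UTR over HGC27-control, limma on log2(RPKM + 0.1)) with its 95% interval for the 10 host genes and for 14 other host genes. *GAS5* at -0.53 and *DANCR* at 0.37 mark the ends of the first panel, and *SNHG6* at -0.23 and *SNHG18* at 0.77 those of the second.

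The order of the levels was similar in both groups. In HGC27-control cells the means ran from *GAS5* (75.4 RPKM) through *ZFAS1* (41.1), *SNHG8* (26.5), *DANCR* (17.1), *SNHG1* (16.6), *SNHG7* (10.8), *SNHG16* (10.7), *SNHG5* (9.59) and *SNHG15* (8.95) to *SNHG12* (6.82). The ranges of *DANCR* and *SNHG1* overlapped there, as did those of *SNHG7* and *SNHG16*, so these neighbours cannot be ordered. In HGC27-FN1 3′-UTR cells the means were 52.4, 32.4, 28.6, 22.1 and 16.8 RPKM for *GAS5*, *ZFAS1*, *SNHG8*, *DANCR* and *SNHG1*. The lower 5 were *SNHG16* (11.3 RPKM), *SNHG5* (9.43), *SNHG7* (9.20), *SNHG15* (7.74) and *SNHG12* (7.11). *DANCR* was then apart from *SNHG1*, and *SNHG7* had moved from above *SNHG16* to below *SNHG5*, with whose range it overlapped. In HGC27-control cells the 10 genes stood above 73.8% to 97.1% of the genes tested.

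The 10 genes together took 0.0580% to 0.0585% of assigned reads in HGC27-FN1 3′-UTR cells and 0.0659% to 0.0692% in HGC27-control cells. *GAS5* made up 32.4% to 32.9% of these reads in the first group and 40.2% to 40.6% in the second. The groups were thus apart for both shares. Unlike the share of all assigned reads, ratios between the host genes within a library do not depend on the scaling between libraries. The RPKM of *DANCR* was 0.402 to 0.436 times that of *GAS5* in HGC27-FN1 3′-UTR cells and 0.202 to 0.244 times in HGC27-control cells. *GAS5* was 3.04 to 3.24 times as high as *SNHG1* in the overexpressing cells and 4.52 to 4.62 times in the control cells. It also changed relative to *ZFAS1*, from 1.78 to 1.88 times its level in the controls to 1.59 to 1.65 times in the overexpressing cells. These ratios show unequal change and were not tested separately.

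**Figure D3:**
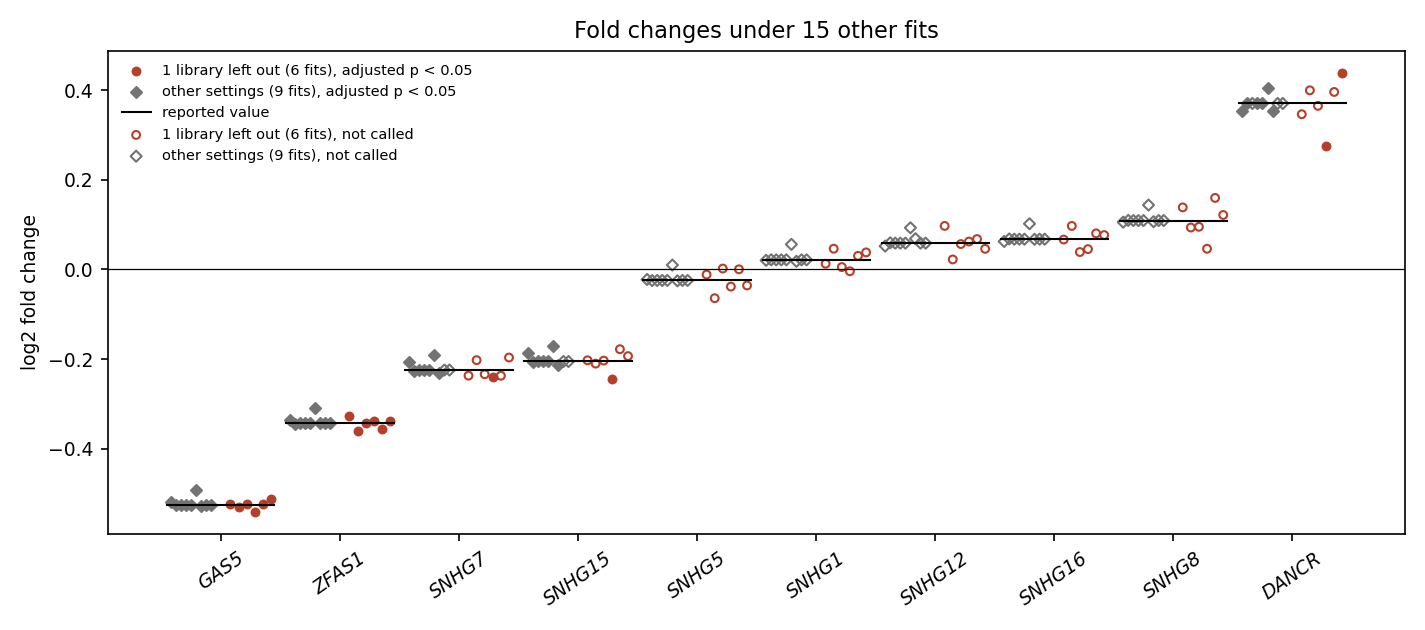
Log2 fold change (vertical axis) of each host gene under 9 other settings (grey) and with each of the 6 libraries left out (red); filled symbols have an adjusted p under 0.05 and black lines are the reported values. *GAS5* and *ZFAS1* were called in all 15 fits, while *SNHG7*, *SNHG15* and *DANCR* kept their direction and were called in some.

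The snoRNAs themselves were poorly covered, as is usual in mRNA libraries. Inside 6 of the host genes, 15 snoRNA rows on the host's strand could be placed, with 7 to 871 reads over all 6 libraries. None could be placed inside *GAS5*, *SNHG8*, *SNHG15* or *DANCR*, and 8 rows that pool snoRNA copies from other places in the genome were left out. Of the 15 rows, 11 lay fully inside annotated exons of the host, where reads of the host RNA can be counted as snoRNA. With limma, 2 of the 15 were higher and 0 lower, with a median log2 fold change of 0.25. At an unadjusted p under 0.05, 7 were higher and 0 lower, and voom called 1 higher and 0 lower. Over all genes tested, 5.62% were higher and 7.36% lower with limma. The shares were 12.0% and 17.6% at that unadjusted p, and 8.77% and 13.2% with voom.

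*SNORD1C*, a C/D box snoRNA in *SNHG16*, had a log2 fold change of 1.50 (SE 0.20, limma adjusted p = 0.00856) on 25 reads against 11. Single libraries held 3 to 11 reads of this row, so the counting error may be larger than this SE. *SNORD22* in *SNHG1* had a log2 fold change of 0.33 (limma adjusted p = 0.0489) on 281 reads against 285, called in 1 of the 6 fits without 1 library. Their hosts were among the genes without a called change. In *ZFAS1*, *SNORD12*, *SNORD12B* and *SNORD12C* had 19, 41 and 55 reads in all and log2 fold changes of 1.10, 0.86 and 0.25, none of them called. In *SNHG7*, *SNORA17A* and *SNORA17B* had 0.038 and 0.86 on 599 and 44 reads, also not called. For *GAS5* and *SNHG15*, the other hosts that fell, there was no snoRNA row to read. The other rows, *SNORD25* and *SNORD26* in *SNHG1*, *SNORD50B* in *SNHG5*, *SNORD99*, *SNORA61* and *SNORA16A* in *SNHG12* and *SNORD1A* in *SNHG16*, were not called, with log2 fold changes from -0.16 (*SNORD1A*, 12 reads) to 0.41 (*SNORD25*, 287 reads). Most of these rows had few reads, and the size of change that could be detected in them was not tested.

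Genes that overlap a host gene, or begin within 5000 bases of its start on the opposite strand, were read next to it. Of 12 tested, 0 were higher and 3 lower with limma, also at an unadjusted p under 0.05 and with voom. With limma, 5.62% of all genes were higher and 7.36% lower, with 12.0% and 17.6% at that unadjusted p and 8.77% and 13.2% with voom. *ZNFX1-AS1_2* and *ZNFX1-AS1_3* are annotated as separate rows but lie wholly inside *ZFAS1* exons on the same strand. *ZNFX1-AS1_2* had a log2 fold change of -0.39 on 2881 reads against 4827 (limma adjusted p = 0.00804). *ZNFX1-AS1_3* had -0.49 on 1824 against 3240 (adjusted p = 0.00815). They cover part of the same stretch of RNA as *ZFAS1* and are no independent measurement of it. Over all 6 libraries they had 7708 reads on 93 bases and 5064 on 87, beside 13416 on the 2243 bases of *ZFAS1*. Whether these reads were also counted for *ZFAS1* is not given, so its RPKM depends on the counting rule. *ZNFX1*, on the opposite strand, had a log2 fold change of -0.011 (95% interval -0.10 to 0.082) at 17.0 and 17.1 RPKM, so the fall of *ZFAS1* was not matched by a fall of that size in the gene it overlaps.

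*SLC3A2*, which encodes the heavy chain of amino acid transporters and starts next to *SNHG1* in the opposite direction, fell by 0.25 on the log2 scale (limma adjusted p = 0.00808), from 53.2 to 44.7 RPKM. *SNHG1* itself was not called, as given above. Around *GAS5*, *GAS5-AS1* had a log2 fold change of -0.0011 on 134 reads and *ZBTB37* had 0.036 (95% interval -0.29 to 0.36), neither of them called. *TRNAU1AP* beside *SNHG12* had -0.051, and *MIR4449* and *RP11-177B4.1* at *DANCR* had -0.099 and -0.24 on 35 and 43 reads. *ZNFX1-AS1_1* had 0.51 on 33 reads and *RP11-666A8.8* beside *SNHG16* had -0.37 on 81 reads. These 5 rows were not called.

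**Figure D4:**
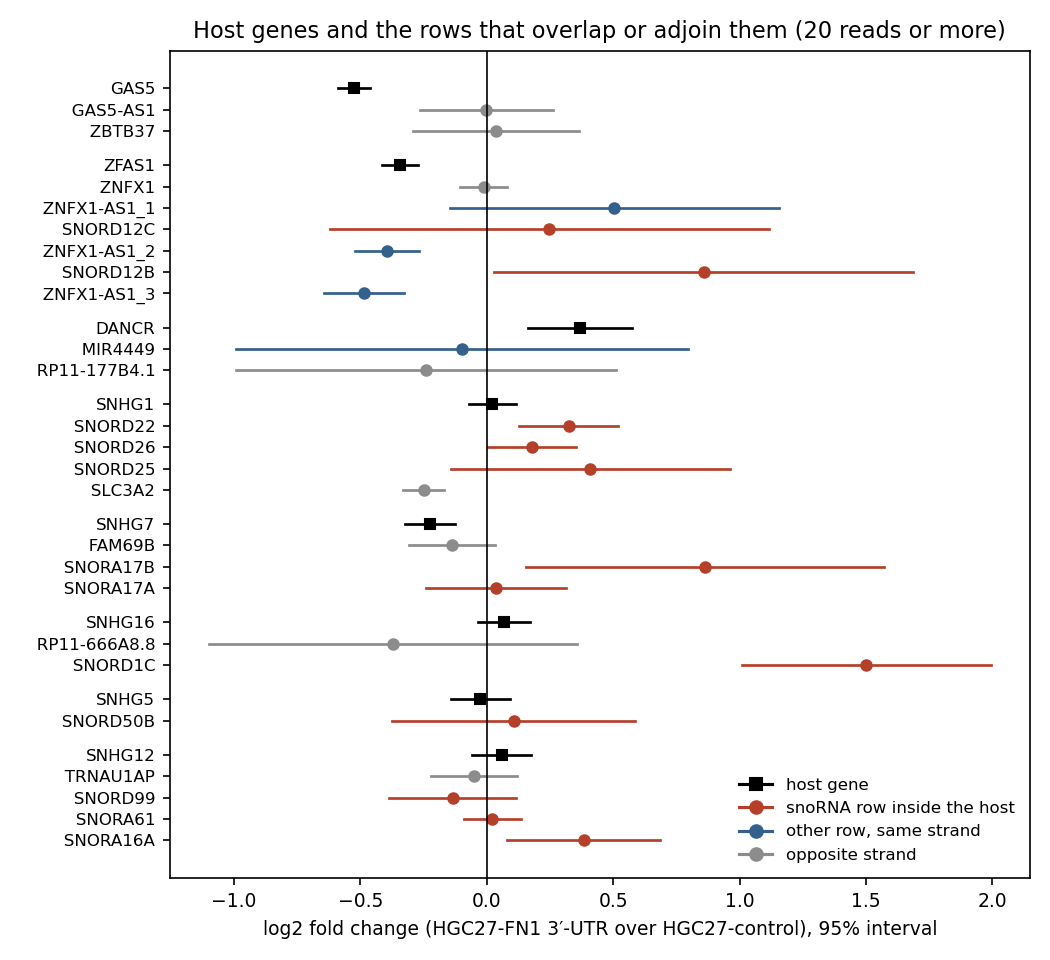
Log2 fold change (horizontal axis) with its 95% interval for 8 host genes (black squares), snoRNA rows inside them (red), other rows on the same strand (blue) and rows on the opposite strand (grey), for rows of at least 20 reads. *ZNFX1-AS1_2* and *ZNFX1-AS1_3*, both inside *ZFAS1* exons, lay near *ZFAS1*, at -0.39 and -0.49, and *ZNFX1* lay at -0.011.

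Among 14 further snoRNA host genes tested, 2 were higher and 1 lower, with a median log2 fold change of 0.066. For this list and those that follow, the limma shares over all genes were 5.62% higher and 7.36% lower. The shares to set beside the other counts were 12.0% and 17.6% at an unadjusted p under 0.05, and 8.77% and 13.2% with voom. At an unadjusted p under 0.05, 5 were higher and 1 lower, voom called 4 higher and 1 lower, and the fit with the replicate block called 0 in either direction. *SNHG6*, a host gene with a higher RPKM than *GAS5* on shorter merged exons (1247 against 3631 bases), fell from 96.0 ± 3.6 to 81.6 ± 1.5 RPKM (SD, n = 3). Its log2 fold change was -0.23 (limma adjusted p = 0.0118), called in 6 of 6 fits without 1 library. *SNHG18* rose by 0.77 (adjusted p = 0.0148) from 0.435 to 0.813 RPKM, a low level, and was called in 5 of 6 such fits (adjusted p up to 0.0507). *SNHG4* rose by 0.17 (adjusted p = 0.0466), and lost its call without any 1 library (adjusted p 0.0540 to 0.133). The other 11 were not called.

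Of 15 protein-coding snoRNA hosts, 2 were higher and 2 lower, with a median of 0.0050, and voom called 4 higher and 3 lower. *HSPA8*, the constitutive HSP70 chaperone and the host of several C/D box snoRNAs, fell by 0.35 on the log2 scale (limma adjusted p = 0.00265), from 406 to 318 RPKM. *NFATC3*, a transcription factor, fell by 0.23 (adjusted p = 0.0463). *GNL3*, the nucleolar GTPase nucleostemin, rose by 0.20 (adjusted p = 0.00804) and *TAF1D*, a factor of RNA polymerase I transcription, by 0.17 (adjusted p = 0.0380). *HSPA8* and *GNL3* were called in 6 of 6 fits without 1 library, *NFATC3* in 1 (adjusted p up to 0.139) and *TAF1D* in 0 (0.0578 to 0.127).

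Of 20 proteins of the snoRNA particles and of their assembly, 4 were higher and 0 lower with limma, with a median of 0.077. At an unadjusted p under 0.05, 9 were higher and 1 lower, and voom called 7 higher and 1 lower. *PIH1D1*, a subunit of the assembly complex R2TP, rose by 0.36 (limma adjusted p = 0.00688) and was called in 6 of 6 fits without 1 library. *NOP58*, a core protein of C/D box particles, rose by 0.23 (adjusted p = 0.0284). *NHP2* and *GAR1*, core proteins of H/ACA box particles, rose by 0.18 and 0.17 (adjusted p = 0.0449 and 0.0471). These last 3 were called in 1 of 6 such fits each, with an adjusted p of up to 0.138.

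Of 18 NMD factors, 0 were higher and 2 lower with limma, with a median of -0.067. At an unadjusted p under 0.05, 3 were higher and 6 lower, as with voom. *UPF1*, the helicase at the centre of NMD, fell by 0.29 on the log2 scale (limma adjusted p = 0.0208) and *SMG5*, an adaptor in the dephosphorylation of UPF1, fell by 0.20 (adjusted p = 0.0289). *UPF1* was called in 3 of 6 fits without 1 library and *SMG5* in 1, with an adjusted p of up to 0.0807 and 0.106.

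Of 21 other mRNAs with a 5′ TOP start, 2 were higher and 2 lower, with a median of -0.029, and voom called 3 higher and 3 lower. *EIF2S3*, a subunit of initiation factor eIF2, rose by 0.20 (limma adjusted p = 0.0128) and *NPM1*, a nucleolar chaperone, by 0.16 (adjusted p = 0.0479). *EIF4B* and *EIF3L*, initiation factors, both fell by 0.12 on the log2 scale (adjusted p = 0.0248 and 0.0372), and under median-ratio scaling 3 of the 21 were higher and 0 lower. Without 1 library *EIF2S3* was called in 5 of 6 fits, *EIF4B* in 1 and *NPM1* and *EIF3L* in 0, with an adjusted p of up to 0.0575, 0.0976, 0.168 and 0.126. Over all 7 lists of rows read beside the members, 12 of 115 were higher and 10 lower, against 5.62% and 7.36% of all genes. Under median-ratio scaling 17 of these rows were higher and 8 lower, and over all genes 1696 were higher and 1330 lower.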

How the data were processed

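RNA-seq of 6 HGC27 libraries, 3 of HGC27-FN1 3′-UTR and 3 of HGC27-control cells, was analysed, with groups and replicate numbers taken from the sample labels. The authors prepared stranded mRNA libraries and deposited RPKM, 1 table per library. The submitters' processing notes name Trimmomatic 0.36, STAR 2.5.3a, featureCounts of Subread 1.5.1 and GRCh38. The annotation release, the strand setting and the handling of duplicates and of overlapping rows are not given in the sources used here. RPKM times length gave whole reads, within 0.01 read, for 100% of values above 0. Libraries of 1 group differed by more than sampling noise (chi-square per gene 2.50 to 5.66). The level of 3 reads was 0.081 to 0.183 per 1000000 reads, which covers counting error only.

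Genes that reached 0.1 RPKM in at least 3 libraries entered a fit with limma 3.58.1 (R 4.3.3) on log2(RPKM + 0.1), with group as the only term and a trended variance prior. Fold changes on this scale understate those of low genes. P-values were adjusted by the Benjamini-Hochberg method over all genes tested. The fit was tested on simulated data. The members, gene lists and tests were chosen with earlier results of these data known. All 10 members, *FN1*, up to 4 called genes per list and direction, and snoRNA and neighbouring rows of at least 10 reads are named. Not every row under this rule is reported here. Alternatives were other pseudocounts, filters, scalings, voom, no trend, a replicate block and each library left out. Same-numbered libraries did not deviate together (correlations 0.0024, 0.021 and 0.010). Transcript starts came from GENCODE 29 and RefSeq. Tables and figures were made with Python 3.11.15, pandas 2.3.3, numpy 2.4.6 and matplotlib 3.10.9.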

Additional observations from a re-analysis of the deposited data

How the results depend on the processing

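*GAS5* and *ZFAS1* stayed lower and called under every alternative except the study's fold criterion, which 0 of 10 members met. Without a variance trend, 2 members were lower and 0 higher, with limma adjusted p of 0.0531 for *SNHG7* (log2 fold change -0.22), 0.0738 for *SNHG15* (-0.21) and 0.0783 for *DANCR* (0.37). Without a filter on low values 0 members were higher (*DANCR* 0.37, adjusted p = 0.0609), and *FN1* (0.52) had 0.0708. The replicate numbers do not pair the libraries, and with the replicate block 2 members were lower (*GAS5* 0.0124, *ZFAS1* 0.0288) and 0 higher, *SNHG7* (-0.22) having an adjusted p of 0.0564, *SNHG15* (-0.21) 0.0762, *DANCR* (0.37) 0.0846 and *FN1* (0.52) 0.0852. Over all genes the block gave 564 higher and 598 lower, voom 2043 and 3065, and the study's criteria 385 and 190. The companion lists together had 6 higher without the filter, 22 higher and 17 lower with voom, 4 and 5 without the trend, and 5 and 4 with the block. Single-list counts moved by over 1.5 times, or to or from 0, in 75 of their alternatives. They stayed within that in 135, among them counts that were 0 in both fits. *SNHG5* turned to 0.0099 under median-ratio scaling (adjusted p = 0.919). The cause of these changes was not tested.

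With each library left out in turn, all genes gave 501 to 927 higher and 470 to 1015 lower, the members 0 to 1 and 2 to 4, and the companion lists 4 to 8 and 5 to 8. The log2 fold change was -0.24 to -0.20 for *SNHG7*, -0.24 to -0.18 for *SNHG15*, 0.28 to 0.44 for *DANCR* and 0.46 to 0.55 for *FN1*. It turned sign for *SNHG1* (-0.0041 to 0.046; without control replicate 1) and for *SNHG5* (-0.064 to 0.0021; without control replicate 2, where it was 3.7e-04, or overexpression replicate 3). Fewer libraries were fitted in each case. Most of the snoRNA rows had under 100 reads over all libraries, and the cause of this low coverage was not tested.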
